A study of Caenorhabditis elegans with 2 samples.

Results

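The genes described here encode the ESCRT complexes and other proteins that sort membrane vesicles, and the data show which of their promoters carried eGFP-tagged F16B12.6 in larvae of the nematode Caenorhabditis elegans. The rule takes all protein-coding genes whose symbol starts with vps-, chmp- or snx-, together with hgrs-1, stam-1, alx-1 and mvb-12. This gave 43 genes of 19973 protein-coding genes on the nuclear chromosomes. The assay, ChIP-seq, sequences DNA pulled down with a chromatin protein, here from whole L1 larvae, the first larval stage, of both sexes, so cell types were not separated. The strain, OP114, has the genotype unc-119(tm4063) III with wgIs114, an insertion for F16B12.6. Both biological replicates share this strain, with no treatment named. The 2 replicates form 1 group, no untagged strain was analysed here, and the age of the larvae is given as unknown.

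ESCRT proteins bend and cut membranes away from the cytosol. ESCRT-0 gathers ubiquitin-tagged cargo on endosomes, ESCRT-I and ESCRT-II pass it on and start the bud, ESCRT-III forms the filaments that close the neck, and the ATPase Vps4 takes the filaments apart. The same machinery seals the nuclear envelope and acts at the end of cell division. Retromer and the sorting nexins send cargo back from endosomes, the HOPS and CORVET complexes tether endosomes and lysosomes before fusion, and the GARP and EARP complexes tether vesicles that return to the Golgi or recycle. These are housekeeping processes of most cells.

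The authors deposited 3 relaxed lists of 30000 entries, for replicate 1, replicate 2 and their pool, that mix peaks with background and carry a signal value from their peak caller. A thresholded list holds 2183 peaks, and all lists used are on the ce11 assembly. The thresholded peaks are entries of the pooled list, and the lowest of their signal values was 21.7. Signal values have no stated scale and were compared only within a list, as ranks, medians and single values. No source used here gives read numbers, so the depth behind an entry is unknown. The promoter window of a gene covered 1000 bp before its annotated 5' end and 200 bp after it, and a gene is called bound where a thresholded summit, the highest point of a peak, lay in that window.

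Of the 43 genes, 14 were bound (32.6%, 95% Wilson interval 20.5 to 47.5%), against 2356 of all 19973 protein-coding genes (11.8%). The bound genes were chmp-7, vps-37, vps-33.2, vps-25, snx-3, vps-22, vps-32.1, vps-4, vps-51, vps-33.1, vps-24, vps-28, vps-60 and vps-26, in order of signal. The share lay above that of all genes, and most of the bound genes belonged to the ESCRT machinery proper, with 9 bound of 16 genes (56.2%, 33.2 to 76.9%). Of the other 27 sorting genes 5 were bound (18.5%, 8.18 to 36.7%). These intervals cover counting error only and treat genes as independent, and neither share was tested, because the genes were picked with earlier results of these data known.

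The signals at the bound genes covered the whole range of the thresholded list. The median signal was 84.0 at the 14 bound genes and 58.7 at all bound genes, and the median rank was 694 and 930.5. Peaks among the 100 strongest lay at 3 of the 14 (21.4%), against 5.56% of all bound genes (131 of 2356). Among the 1091 strongest peaks were those of 9 genes (64.3% of the bound ones, against 57.9% of all bound genes). Thus chmp-7, vps-37 and vps-33.2 had among the strongest peaks of the data set, while vps-24, vps-28, vps-60 and vps-26 had peaks in the weakest part of the list.

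**Figure D1:**
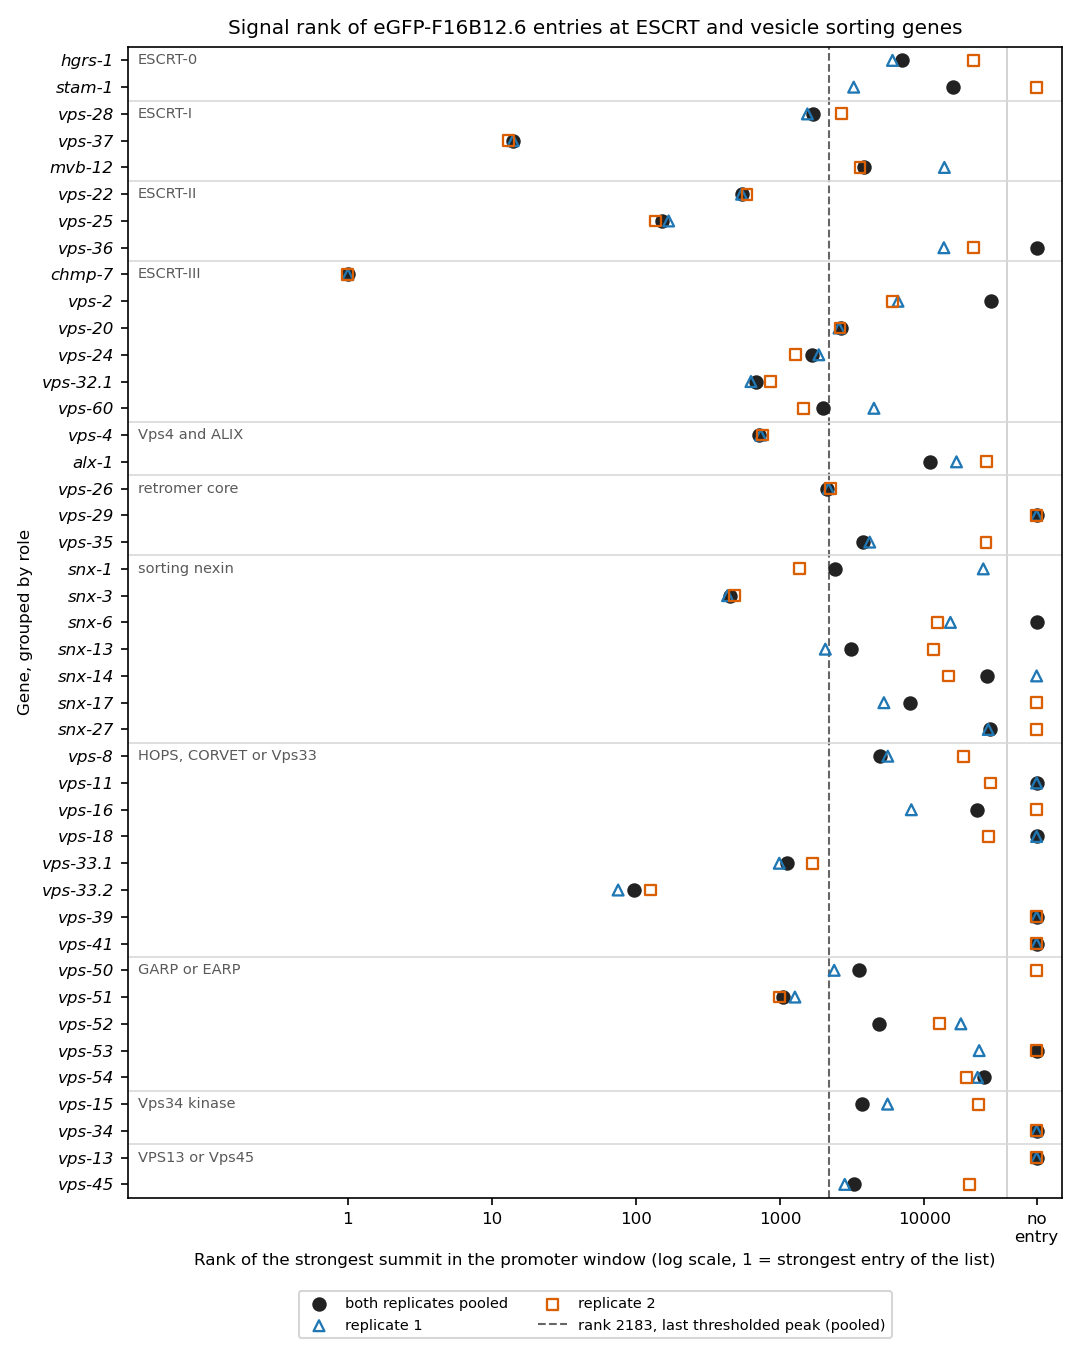
Rank of the strongest summit in the promoter window of each of the 43 genes (log axis, rank 1 is the strongest entry of a list), in the pooled list (filled circles), replicate 1 (triangles) and replicate 2 (squares), with the genes grouped by role. The dashed line is rank 2183, the last thresholded peak, and symbols in the column at the right have no entry in that list. The 3 symbols of chmp-7, vps-37 and vps-4 nearly coincide, those of vps-60 spread across the line, and those of vps-20 lie together just right of it.

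The strongest peak of the whole data set lay at chmp-7 (WBGene00011976), which encodes an ESCRT-III-related protein that in other animals recruits ESCRT-III to the nuclear envelope. Its signal value was 1543 in the pooled list, and the entry ranked 1 in replicate 1 (866) and 1 in replicate 2 (684). The peak spans chrII:9054650-9054947 and its summit lies 165 bp upstream of the annotated 5' end, between protein-coding genes. No other gene had this summit in its window. The entries of replicates 1 and 2 had their summits 6 bp apart.

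The second strongest signal of a sorting gene was at vps-37 (WBGene00016990), which encodes a subunit of ESCRT-I. It ranked 14 in the pooled list with a signal of 920, 14 in replicate 1 and 13 in replicate 2. The peak spans chrV:5592396-5592645, with the summit 178 bp upstream of the gene, and again lay in no other window. The gene is followed on the same strand, with gaps of at most 500 bp, by mrpl-48, a mitochondrial ribosomal protein gene, and crn-2. The third was at vps-33.2 (WBGene00016960), a Sec1/Munc18 family gene related to vertebrate VPS33B, which ranked 97 (signal 516), 75 in replicate 1 and 125 in replicate 2. This gene lies inside epg-5, an autophagy gene on the opposite strand, so that its summit, 22 bp upstream of its own 5' end, is in an epg-5 intron (chrII:6601089-6601308).

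The sequences at the summits show what these sites are made of. The 100 bp centred on the summit are printed for the 6 strongest bound genes on chromosomes II, III and V, from the WBcel235 assembly (ce11 coordinates) and on the strand of the gene. They lie at chrII:9054757-9054856 (plus strand) for chmp-7, chrV:5592472-5592571 (plus) for vps-37, chrII:6601144-6601243 (plus) for vps-33.2, chrIII:4963061-4963160 (minus) for vps-22, chrII:6589022-6589121 (plus) for vps-32.1 and chrIII:8700710-8700809 (plus) for vps-33.1. Capitals mark matches to GTGTTTGC, read as GCAAACAC on the opposite strand, and matches to ACGCAG, whose opposite strand reads CTGCGT.
chmp-7: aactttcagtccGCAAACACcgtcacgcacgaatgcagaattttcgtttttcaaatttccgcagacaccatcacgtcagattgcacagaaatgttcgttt
vps-37: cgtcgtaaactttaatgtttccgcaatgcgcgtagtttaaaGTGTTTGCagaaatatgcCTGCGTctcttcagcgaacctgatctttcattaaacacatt
vps-33.2: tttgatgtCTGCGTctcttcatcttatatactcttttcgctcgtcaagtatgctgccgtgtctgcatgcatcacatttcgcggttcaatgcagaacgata
vps-22: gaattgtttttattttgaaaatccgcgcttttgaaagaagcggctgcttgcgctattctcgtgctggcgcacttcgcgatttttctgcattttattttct
vps-32.1: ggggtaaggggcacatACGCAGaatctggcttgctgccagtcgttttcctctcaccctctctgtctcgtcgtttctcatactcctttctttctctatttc
vps-33.1: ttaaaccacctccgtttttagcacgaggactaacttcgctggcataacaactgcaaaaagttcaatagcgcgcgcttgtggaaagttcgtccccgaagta

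In these 6 sequences no base belonged to both motifs, vps-37 held a copy of each, and those of vps-22 and vps-33.1 held neither. Over all 14 bound genes, ACGCAG stood within the 100 bp in 3 (21.4%: vps-37, vps-33.2 and vps-32.1), against 18.8% of all 2183 thresholded summits, 3.59% of the 27802 pooled entries that overlapped no thresholded peak, and 3.07% of 100 bp stretches centred 150 bp upstream of all 19973 genes. The share at the bound sorting genes was thus near that of thresholded summits as a whole. ACGCAG was chosen beforehand, but with earlier results of these data known, so its shares are a description only. GTGTTTGC was chosen after the summit sequences had been seen. It was found at 4 of the 14 (28.6%: chmp-7, vps-37, vps-25 and snx-3), against 15.6% of all thresholded summits, 0.734% of the weaker entries and 1.12% of the upstream stretches. In the whole 1200 bp window it occurred in 4 of 14 bound and 1 of 29 unbound sorting genes, against 20.6% of all bound genes and 6.16% of all genes. In the same window ACGCAG occurred in 5 of 14 bound and 4 of 29 unbound sorting genes, against 38.1% of all bound genes and 23.9% of all genes. A match is a string of letters and was not tested as a binding site.

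The chmp-7 summit held a near repeat. Among all non-overlapping stretches of 20 bp in the same orientation within its 100 bp, the pair most alike started 48 bp apart and had 16 identical bases, at chrII:9054764-9054783 and chrII:9054812-9054831 (plus strand). Capitals mark the identical bases, and the search was made after the sequence had been seen.
copy 1: agTCCGCAaACACCgTCACG
copy 2: ttTCCGCAgACACCaTCACG

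The second copy stands close to the summit, and the first contains GCAAACAC. A pair at least as alike was present at 30 of the 2183 thresholded summits (1.37%), and chmp-7 was alone among the 14 bound genes with such a pair. The cutoff was taken from the chmp-7 pair itself, so that chmp-7 meets it by construction. Between bound genes, the longest run of identical bases shared by their 100 bp, on either strand, had a median of 7 bp over 91 pairs. The longest was 15 bp, between snx-3 and vps-25, and it contained GTGTTTGC. The next was 13 bp, between vps-33.2 and vps-37, and it contained ACGCAG: both sequences above show it directly at their capitals.

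**Figure D2:**
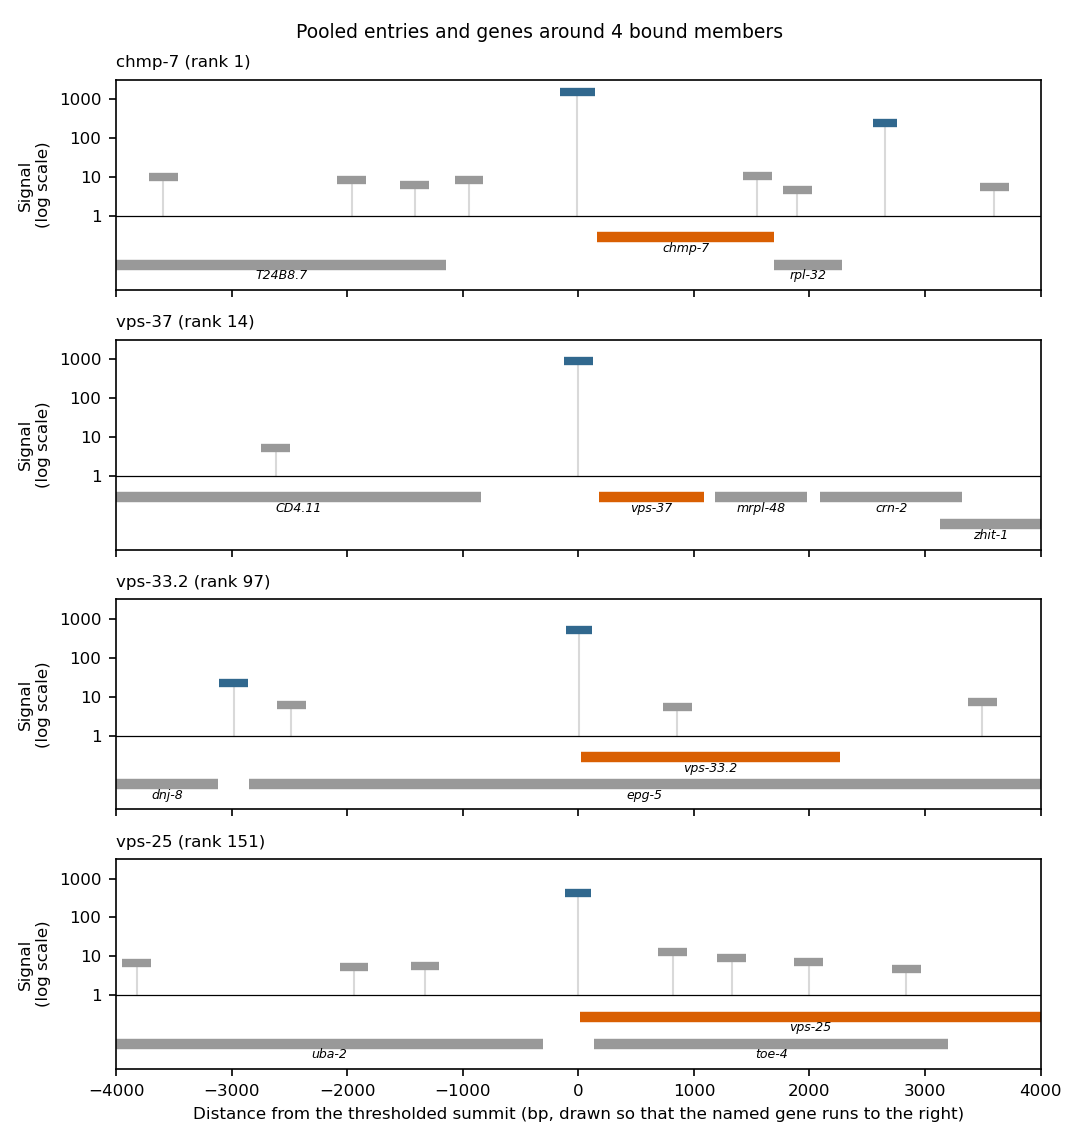
Pooled entries and protein-coding genes around chmp-7, vps-37, vps-33.2 and vps-25, as distance in bp from the thresholded summit, drawn so that the named gene (orange) runs to the right. Horizontal marks give the extent and signal value of each entry (log axis), blue for thresholded peaks and grey for weaker entries, and the lower gene track holds genes on the opposite strand. Each gene has a strong peak at its start, with signals of 1543, 920, 516 and 424. Besides weaker entries, the chmp-7 and vps-33.2 panels each hold a further blue peak, which lies outside the promoter window of either gene.

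In ESCRT-0, neither of the 2 genes was bound. The entry at hgrs-1 (the worm HRS, which holds ubiquitin-tagged cargo) ranked 7025 in the pooled list and 6002 in replicate 1. Its summits there lie 172 and 151 bp downstream of the 5' end. The strongest entry of replicate 2 in the hgrs-1 window was at another place, 754 bp upstream, with rank 21767. The entry at stam-1, the partner of hgrs-1, ranked 15868 in the pooled list and 3230 in replicate 1. Replicate 2 had no entry in the stam-1 window. In ESCRT-I, vps-28 was bound in addition to vps-37, with rank 1696 (signal 28.8), 1542 in replicate 1 and 2666 in replicate 2, where it fell outside the 2183 strongest entries. The third ESCRT-I gene, mvb-12, was not bound, with pooled rank 3783 (signal 11.8), 13750 in replicate 1 and 3573 in replicate 2.

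In ESCRT-II, which links ESCRT-I to the filament proteins, vps-25 (WBGene00012193) ranked 151 (signal 424), 168 in replicate 1 and 136 in replicate 2. Its summit lies 10 bp upstream of the 5' end, and 313 bp separate the gene from uba-2, which encodes a subunit of the SUMO-activating enzyme and is transcribed the other way, so that the summit is in the windows of both. The second ESCRT-II gene, vps-22, ranked 543 (signal 122), 539 in replicate 1 and 588 in replicate 2. Its summit is 618 bp upstream of vps-22 and 67 bp from the 5' end of C27F2.9, which has the same summit in its window, so the peak is nearer to C27F2.9. The annotated 5' end of vps-22 also lies inside another protein-coding gene. The third, vps-36, was not bound: it had no pooled entry in its window, and the replicates had entries of rank 13639 and 21751.

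In ESCRT-III, 4 of 6 genes were bound. After chmp-7 came vps-32.1, whose product is the worm form of the main filament protein (CHMP4 in vertebrates), with rank 674 (signal 87.2), 626 in replicate 1 and 851 in replicate 2. Its summit is 636 bp upstream, the farthest of the 14, and 417 bp from icd-1, a gene for a subunit of the nascent polypeptide-associated complex, which shares it. The gene vps-24, for a capping filament protein, ranked 1648 (signal 30.1), 1850 in replicate 1 and 1281 in replicate 2, with a summit 13 bp upstream that is also in the windows of eif-1 and pigb-1. The gene vps-60, related to CHMP5, ranked 1972 (signal 24.3) but 4463 in replicate 1 and 1457 in replicate 2. Of its replicate entries, only that of replicate 2 was thus among the 2183 strongest of its list. The gene vps-20, the filament starter, lay past rank 2183 in all 3 relaxed lists, with pooled rank 2637 (signal 17.1), 2555 in replicate 1 and 2598 in replicate 2. The strongest entry in the window of vps-2 ranked 28869 in the pooled list, 6551 in replicate 1 and 6041 in replicate 2. These entries lay at different places, at -834, 11 and -196 bp relative to the 5' end.

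The ATPase gene vps-4, which encodes the enzyme that recycles ESCRT-III filaments, was bound with rank 714 (signal 80.7), 731 in replicate 1 and 757 in replicate 2. The summit is 267 bp upstream of vps-4 and in no other window. The gene alx-1, for the ESCRT-associated protein ALIX, was not bound, with ranks of 10956, 16684 and 27028 in the pooled list, replicate 1 and replicate 2.

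**Figure D3:**
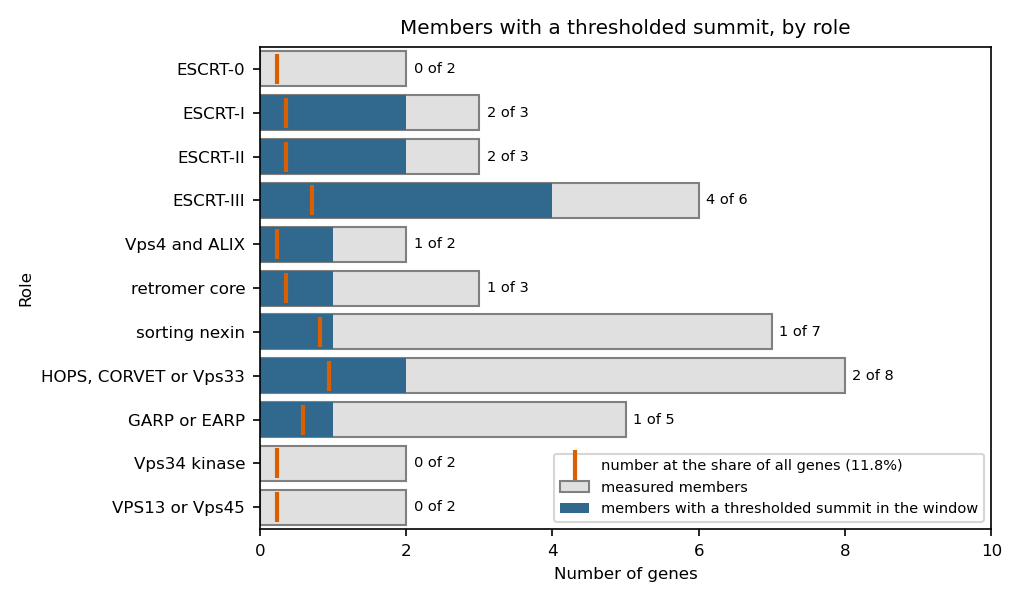
Number of genes in each role (grey bars, x axis) and number with a thresholded summit in the promoter window (blue bars). The orange marks show the number that the share of all protein-coding genes, 11.8%, would give. ESCRT-I, ESCRT-II and ESCRT-III have 2 of 3, 2 of 3 and 4 of 6 bound, while ESCRT-0, the Vps34 kinase genes and the pair vps-13 and vps-45 have 0 of 2 each.

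Outside the ESCRT machinery, at most 2 genes were bound in a role, as also in each ESCRT role except ESCRT-III. In the retromer core vps-26 was bound at the weak end of the list, with rank 2111 (signal 22.7), 2160 in replicate 1 and 2234 in replicate 2, just outside the 2183 strongest there. Of the other core genes, vps-35 had a pooled entry of rank 3726 and vps-29 had none in any list. Of the 7 sorting nexin genes, snx-3 was bound: it encodes a nexin that works with retromer in returning the Wnt carrier MIG-14, and it ranked 450 (signal 187), 431 in replicate 1 and 483 in replicate 2. Its summit is 325 bp upstream and also in the window of rad-54.L, a DNA repair gene. The other nexin genes were not bound, and snx-1 differed between the replicates, with rank 25596 in replicate 1 and 1365 in replicate 2 (pooled rank 2402, signal 19.3). The gene snx-13 went the other way, with rank 2053 in replicate 1 and 11612 in replicate 2 (pooled rank 3070). The remaining nexin genes had pooled ranks of 7963 (snx-17), 27030 (snx-14) and 28291 (snx-27), and snx-6 had no pooled entry.

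Of the 8 genes for HOPS, CORVET and Vps33 proteins, 2 were bound. Besides vps-33.2 this was vps-33.1, which encodes the Sec1/Munc18 subunit of HOPS, with rank 1111 (signal 47.0), 984 in replicate 1 and 1669 in replicate 2, and a summit 167 bp upstream that sdz-1 shares. Neither vps-39 nor vps-41, for subunits specific to HOPS, had an entry in any list, and vps-11 and vps-18 had entries in replicate 2 alone, of rank 28901 and 27841. The CORVET gene vps-8 had a pooled rank of 4890, and vps-16 had a pooled rank of 23171. Of the 5 genes for GARP and EARP subunits, vps-51 was bound with rank 1050 (signal 49.95), 1263 in replicate 1 and 991 in replicate 2. Its summit is 254 bp upstream of vps-51 but 164 bp from lin-35, the worm retinoblastoma gene, which is transcribed the other way. The genes vps-50, vps-52 and vps-54 had pooled ranks of 3490, 4849 and 26009, and vps-53 had no pooled entry. The genes vps-34 and vps-15 encode the kinase that makes phosphatidylinositol 3-phosphate on endosomes and its partner: vps-34 had no entry in any list, and vps-15 had pooled rank 3673. The Sec1/Munc18 gene vps-45 had pooled rank 3249, and the lipid transfer protein gene vps-13 had no entry.

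Weak entries were common at the unbound genes. A pooled relaxed summit lay in the window of 33 of the 43 genes (76.7%), against 41.0% of all protein-coding genes, and in that of 19 of the 29 unbound genes (65.5%), against 33.1% of all unbound genes. The signals of these 19 ran between 4.57 and 19.3, with a median of 10.1, against 6.51 at all unbound genes with an entry. Of the 10 genes without a pooled entry, 5 had an entry in a replicate list (vps-11, vps-18, vps-53, vps-36 and snx-6), and 5 had none (vps-13, vps-29, vps-34, vps-39 and vps-41). For the 14 bound genes the replicate ranks had a Spearman correlation of 0.925, as a description over genes that were selected with both replicates, and 0.871 for the 2338 bound genes of all kinds with an entry in both. For the 15 unbound sorting genes with an entry in both replicates it was -0.104, and the entries of a window need not be at the same place. The summits of the bound genes in the replicates were a median of 11 bp and at most 36 bp apart.

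All 14 summits lay upstream of the 5' end of their gene, as did 95.9% of those of all bound genes. The median position was -174.5 bp (quartiles -310.5 and -59.2 bp), against -217 bp (-382.8 and -124 bp) for all bound genes, and 8 of 14 (57.1%) lay within 200 bp, against 47.5%. The nearest were at vps-25 (10 bp), vps-24 (13 bp), vps-33.2 (22 bp) and vps-26 (24 bp). In 7 of the 14 the summit was also in the window of another gene (50%, against 59.9% of all bound genes), and in 11 the sorting gene had the nearest 5' end, the exceptions being vps-22, vps-32.1 and vps-51. The summits had a median of 43.5 G and C bases per 100, against 47 at all thresholded summits and 37 at the weaker pooled entries. Many worm transcripts are trans-spliced, and their annotated 5' end can then lie downstream of the true start of transcription.

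**Figure D4:**
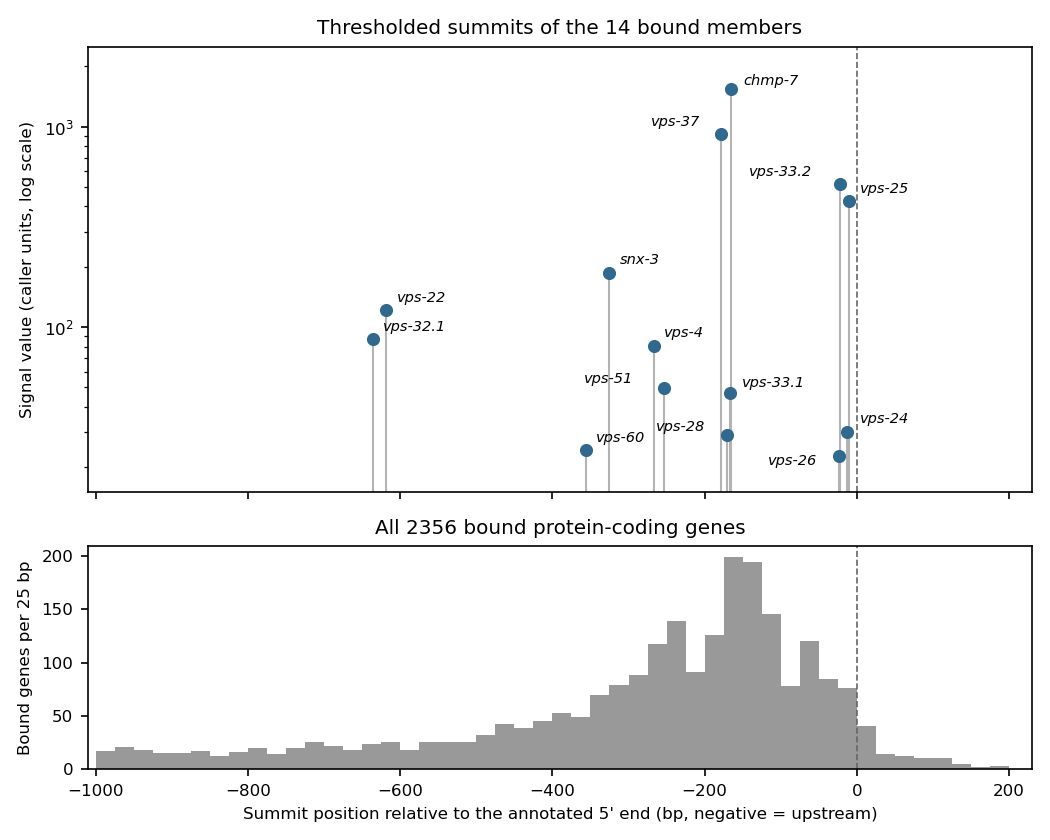
Top: position of the thresholded summit relative to the annotated 5' end (x axis, bp, negative is upstream) and signal value (log axis) of the 14 bound genes. Bottom: the same positions for all 2356 bound protein-coding genes, in bins of 25 bp. All 14 summits are upstream, 8 of them within 200 bp, and those of vps-22 and vps-32.1 lie at -618 and -636 bp.

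Some sorting genes stand close behind another gene on the same strand, as the inner genes of worm operons do, and such genes can be transcribed from the promoter of the gene that leads the run. A gap of at most 500 bp to such a neighbour was found for 11 of the 43 genes, with gaps of 89 to 347 bp. Of these 11 genes 2 were bound at their own window (18.2%), vps-26 and vps-28, against 8.58% of all 3615 such genes. Of the 32 other sorting genes 12 were bound (37.5%), against 12.5% of the 16358 other protein-coding genes. For 5 of the 9 unbound genes behind a neighbour the leading gene of the run was bound (55.6%, against 26% of 3305 genes of all kinds). Thus vps-11 stands behind npp-19, a nuclear pore gene whose peak ranked 28 (signal 746), and vps-16 behind txdc-9, whose peak ranked 41 (signal 698.5). The leading gene ranked 301 for vps-29 (ZK1128.1), 1121 for vps-54 (erh-1) and 1469 for vps-8 (tag-335). These summits lie between 1305 bp (vps-16) and 5176 bp (vps-11) upstream of the sorting gene. Read at the leading gene, 18 of the 43 genes were bound, against 15.2% of all genes, a setting added after the data were seen. Whether these genes form operons was not tested.

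The count of bound genes depended on the settings by a few genes. With 500 bp upstream in place of 1000 it was 12 of 43, without vps-22 and vps-32.1 (all genes 9.94%), and with 2000 bp it was 17, with snx-6, vps-16 and vps-29 added (14.5%). With a summit assigned to the closest 5' end alone it was 11, without vps-22, vps-32.1 and vps-51 (8.12%). It remained 14 with the 5' ends of all transcripts (12.3%) and with any overlap of peak and window (12.3%). Of the 1091 strongest peaks alone, 9 genes had a summit (6.83%). Among the 2183 strongest entries of replicate 2 alone it was 13, with snx-1 gained and vps-26 and vps-28 lost (11.3%), and among those of replicate 1 alone 14, with snx-13 in place of vps-60 (11.7%). In both replicates at once it was 11 (9.88%). The share was above that of all genes in each of these settings.

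By chromosome, 5 of 10 sorting genes on I were bound, 4 of 10 on II, 2 of 7 on III, 1 of 5 on IV, 2 of 6 on V and 0 of 5 on X, where 6.04% of all genes were bound. Over all genes the shares were 18.6% on I, 12% on II, 21.4% on III, 10.7% on IV and 6.55% on V.

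The proteins that act with this machinery but have other names were looked at through 31 further genes, of which 13 were bound (41.9%, against 11.8% of all genes). This list, too, was drawn up with earlier results known. Among ESCRT partners, did-2, the CHMP1 gene, had rank 61 (signal 582), 74 in replicate 1 and 51 in replicate 2, and usp-50, a gene of the ubiquitin peptidase family, had rank 1359. The ESCRT-I core gene tsg-101 was not bound, with pooled rank 16515, nor was istr-1 (13170). Of the CHMP7 partners at the nuclear envelope, baf-1, for the chromatin-bridging protein BAF, was bound with rank 1313 (signal 38.97) and a summit that tag-342 shares, lem-2, for the inner membrane protein that recruits CHMP7 in other species, ranked 2193 (signal 21.6) and so lay just past the threshold, and emr-1, for emerin, ranked 6662.

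Of 14 genes for endosomal Rab proteins and their regulators, 7 were bound. These were rme-6, an exchange factor gene for RAB-5 (rank 358, signal 262), rab-11.1 of recycling endosomes (570), rab-7 of late endosomes (872), rab-5 of early endosomes (979), ccz-1, whose product helps to load RAB-7 (1016), the tether gene eea-1 (1383) and rabx-5 (2089). The summits of rab-5, rab-7 and rab-11.1 lie at -703, -788 and -679 bp and are shared with nmat-2, with mex-1 and W03C9.5, and with rpl-7. Those of rme-6, ccz-1 and eea-1 are also in the windows of pigx-1, tag-65 and gut-2. Of the recycling genes rme-8 was bound (rank 681), and mig-14, lst-4 and rme-1 were not. Of 6 genes for Vps34 partners and phosphoinositide enzymes, epg-8, the worm ATG14 gene, had rank 23 (signal 797), 21 in replicate 1 and 27 in replicate 2, and the kinase gene ppk-3 had rank 1000, while bec-1, the Beclin gene, had no entry in any list.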

How the data were processed

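ChIP-seq of eGFP-F16B12.6 in L1 larvae was deposited as peak lists for 2 biological replicates and their pool. Per the deposited notes, each relaxed list was derived from a replicate's alignments, or those of both, and a control, and the thresholded list from the pooled and both replicate lists by irreproducible discovery rate. No source used here names the aligner, the caller or the threshold. The lists have 10 columns: column 7 was read as the signal value of the authors' caller, and column 9, the −log10 q value the authors deposited, was not used. Lists on ce10 were not used, and no coordinate was converted. The members and lists were chosen with earlier results of these data known. Summits (start plus column 10) on ce11 were looked up in windows of Ensembl release 115 protein-coding genes (WBcel235), with coordinates 1-based. Where several summits lay in a window, the strongest was taken. Ranks run from the highest signal. Every member is accounted for: bound members and those with a pooled entry are given with values. No comparison was tested, because the design has 1 group and the genes were picked with earlier results of these data known. Sequences came from the RefSeq WBcel235 genome. The look-up was tested on simulated data. Wilson intervals have a confidence level of 95% and cover counting error only. Alternatives were other windows, assignments, lists and gene sets. Python 3.11.15, NumPy 2.4.6, pandas 2.3.3, SciPy 1.17.1 and matplotlib 3.10.9 were used.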

Additional observations from a re-analysis of the deposited data

How the results depend on the processing

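The count of 14 bound sorting genes ranged from 11 to 17 over other windows, gene assignments and lists, except that it was 9 with the 1091 strongest peaks and 18 when genes behind a same-strand neighbour were read at the leading gene. Without these genes 12 of 32 were bound (37.5%, against 12.5% of the 16358 other protein-coding genes). Leaving out replicate 1 or replicate 2 gave 13 and 14. The count for ESCRT genes was 9. It became 7 with 500 bp upstream, 7 with the nearest 5' end only, and 8 with either replicate left out. The count for sorting genes other than ESCRT genes was 5. It became 8 with 2000 bp upstream, 4 with the nearest 5' end only, and 6 with replicate 2 left out. For single roles, 46 of 55 counts under alternatives stayed within 1.5 times the main count and 9 did not. The 46 include the counts of ESCRT-0, the Vps34 kinase genes and the pair vps-13 and vps-45, which were 0 throughout. Where the main count was 1 or 2, the loss of 1 gene was enough to move it. Of 28 replicate ranks of bound genes, 25 were within 1.5 times the pooled rank. The exceptions were vps-33.1 (1669 in replicate 2), vps-28 (2666 in replicate 2) and vps-60 (4463 in replicate 1). The pooled list was made from both replicates and the bound genes were selected with both, so such closeness is in part built in. Within 200 bp in place of 100 around the summit, ACGCAG stood at 28.6% of bound genes and GTGTTTGC again at 28.6%. The cause of these changes was not tested. No paired analysis was possible because the 2 replicates form a single group. Depth is unknown, so absence of an entry does not show absence of binding.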

Other observations

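Inside the sorting genes, outside their windows, 2 further thresholded peaks were found. The first lies 4495 bp into vps-25, 2 bp from the 5' end of a shorter annotated transcript of that gene, with rank 962 (signal 56.2), 975 in replicate 1 and 985 in replicate 2, so that vps-25 has a peak at each of these starts. The other lies 4855 bp into vps-4, in an intron, with rank 1916 (signal 25.3), 2903 in replicate 1 and 1137 in replicate 2, and its summit is in the window of npr-23. Bound sorting genes also stand ahead of other genes on their strand, with gaps of at most 500 bp: vps-37 before mrpl-48 and crn-2, vps-51 before mtk-1 and glh-3, vps-22 before C27F2.4, vps-4 before Y34D9A.8, vps-26 before T20D3.6 and snx-3 before prmt-7.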
